A study of Mus musculus with 13 samples.

Results

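Spinal cord monocytes were compared with bone marrow monocytes of STAT5 tetramer-deficient (DKI) mice in which experimental autoimmune encephalomyelitis (EAE), used as a mouse model for multiple sclerosis, had been induced. These are 2 of the 13 RNA-seq libraries of the series, 1 a side, and 8182 of the 21073 genes in the table were compared, namely those with at least 5 RPKM (read counts scaled for the length of the gene and the depth of the library) in either library. In DKI mice both Stat5 genes, Stat5a and Stat5b, carry knock-in changes that leave STAT5 dimers but block their pairing into tetramers. They were on a C57BL/6J background and received the myelin peptide MOG35-55 in CFA (complete Freund's adjuvant), with 250 ng of pertussis toxin at 2 and at 24 hours. Monocytes from the bone marrow, and monocytes together with antigen-presenting cells (APCs) derived from them in the spinal cord, were sorted on day 14 after immunization. Both sides of the comparison therefore carry the DKI alleles and the disease, and neither wild-type nor unimmunized monocytes are among the libraries. The labels do not give the sort markers, the number of animals behind a library, or whether animals were pooled. The APC library is printed as the other cord library, and 10 libraries of Th17 cells serve only as a reference for T cell RNA. Those were CD4+ T cells of MOG35-55 primed C57BL/6J mice, from spleen and lymph nodes, cultured under Th17 conditions, with 2 wild-type and 2 DKI libraries and a further set of 3 DKI libraries without and 3 with the chemokine CCL17.

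Monocytes arise in the bone marrow from dividing progenitors, leave it along chemokine gradients through the receptor CCR2, and in EAE enter the spinal cord in large numbers. There they mature into macrophages and antigen-presenting cells, a process in which transcription factors such as the liver X receptors and NF-κB set which surface receptors, enzymes and transporters are made. Activated myeloid cells are known for high glycolysis, for altered use of the citric acid cycle, and for secreting proteases and growth factors that act on the tissue.

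The estimated assigned reads were 31800000 for the marrow library, 26400000 for cord monocytes and 24300000 for cord APCs. With 1 library a side no test was possible, and a difference between animals or sorts cannot be told apart from a difference between organs. A difference is given as log2(RPKM + 1) in cord minus marrow monocytes, which understates the change of genes with low values. Folds are ratios of RPKM, and the 95% intervals beside them (exact binomial, on estimated reads) cover counting error only. At 4-fold, a difference of 2 or more in size, 510 genes (6.23%) were higher and 420 (5.13%) were lower in the cord library. Over all genes the values were shifted slightly towards lower ones, with a median difference of -0.37 and 31.5% of genes above 0. Centring each library on its median gene, a shift of -0.30, gave 602 higher and 319 lower genes, so that the share of higher genes among those at 4-fold went from 54.8% to 65.4%. The higher tail was the longer: 142 genes were at least 16-fold higher and 37 at least 16-fold lower. The APC library lay on the same side of marrow for all 510 higher and all 420 lower genes, and 448 and 372 of them were also 4-fold apart there. Those comparisons share the marrow library.

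The label of the cells was checked against marker genes. Classical monocyte markers were abundant in all 3 libraries, with a summed level of 30892 RPKM in marrow monocytes, 17979 in cord monocytes and 14840 in APCs. Of these 12 markers, however, 9 were below 0 and 4 were 4-fold lower in cord monocytes, with a median of -1.28 (-2.39 in APCs against marrow), and Lyz2 alone was at 17293, 9263 and 10050 RPKM. Ly6c2, which encodes the Ly6C antigen of classical monocytes, stood at 1654 RPKM in the marrow library, 1118 in cord monocytes and 235 in the APC library. The lysozyme gene Lyz2 took 2.28% of marrow reads and 1.22% of cord reads. Markers of other cells differed between the libraries, and their part in the results below was not tested except where a value is given. Progenitor and immature granulocyte markers summed to 917 RPKM in marrow, 44.7 in cord monocytes and 36.1 in APCs. Of the 8 past the filter, 7 were 4-fold lower in cord monocytes and 1 was 4-fold higher, with a difference of 2.14. Mature neutrophil markers summed to 6125, 833 and 1041 RPKM, although Ly6g, which defines neutrophils, was at only 2.45, 0.551 and 2.00. Of the 7 past the filter, 5 were 4-fold lower in cord monocytes and 2 were above 0. With APCs as the cord side, 4 of 8 were 4-fold lower and 1 was 4-fold higher. Microglia markers summed to 145, 476 and 1205 RPKM, and all 8 past the filter were higher in cord monocytes. Among them Siglech had no reads in marrow, and Tmem119, a defining gene, stood at 1.86, 25.8 and 83.5 RPKM. T cell markers summed to 1.44, 72.7 and 88.0 RPKM, against 2431 to 3216 in the Th17 libraries, and Cd3e, Cd3g, Cd4, Cd8a and Lck were at 0 in marrow. Erythroid markers summed to 0.573, 50.2 and 26.6 RPKM, and endothelial and stromal markers to 9.96, 46.0 and 39.7 RPKM. In the same order of libraries, the sums were the following for neurons and glia (30.1, 31.0 and 29.0), dendritic cells (19.4, 31.5 and 161), NK cells (1.68, 6.41 and 8.31), B cells and plasma cells (6.90, 3.15 and 5.48) and eosinophils, basophils and mast cells (5.37, 2.16 and 6.74). Border-associated macrophage markers summed to 1269, 157 and 175 RPKM, nearly all from F13a1, which classical monocytes also make. In such bulk samples a smaller share of cells of a type and less RNA per cell cannot be told apart.

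**Figure D1:**
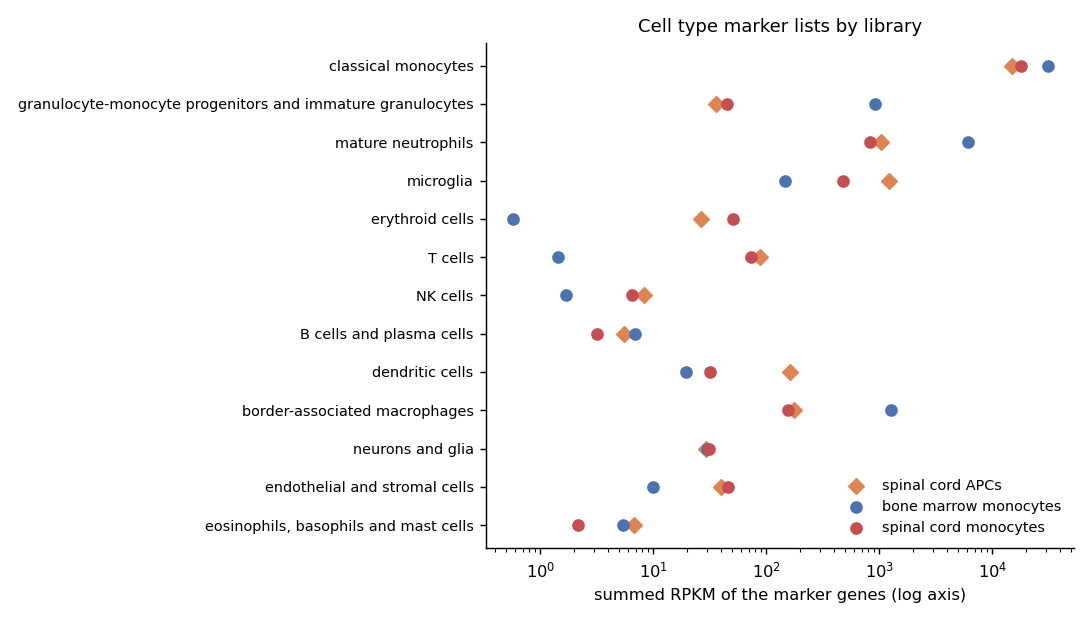
Summed RPKM of 13 cell type marker lists (log axis) in the libraries of bone marrow monocytes (blue), spinal cord monocytes (red) and spinal cord APCs (orange diamonds), 1 library each. Classical monocyte markers are the highest sum in each library, progenitor markers go from 917 RPKM in marrow to 44.7 in cord monocytes, and microglia markers reach 1205 in APCs.

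Progenitor and lineage transcription factors as a list were at the level of all genes, with a few members far lower in the cord. Of 35 factors listed, 18 passed the filter, 4 were 4-fold lower and 1 was 4-fold higher, and their median of -0.36 was that of all genes (-0.37). Nfe2, a bZIP factor of erythroid and megakaryocyte cells, was at 126 RPKM in the marrow library, 10.8 in cord monocytes and 4.05 in the APC library. It was 11.6-fold lower (95% interval 10.7 to 12.7) in the cord. Myb, which keeps progenitors dividing, was at 7.88, 0.158 and 0.107 RPKM in the same order of libraries. Cebpe, a factor of granulocyte maturation, stood at 17.8, 1.92 and 0.949 RPKM, and Bcl11a, a lymphoid and progenitor repressor, at 5.88, 0.589 and 0.399 RPKM. For each of these 4 genes both cord libraries were below marrow. Spi1, which encodes the myeloid master factor PU.1, was nearly level at 257, 265 and 209 RPKM. Irf8, which drives monocyte fate, was at 111, 152 and 125 RPKM, and Cebpa, the granulocyte-monocyte factor, at 62.03, 106 and 123 RPKM. The member that was 4-fold higher was Runx3, a RUNX factor of T cells and dendritic cells, at 9.06, 46.03 and 39.1 RPKM. Gata1, Tal1, Gfi1b and Klf1, the factors of red cell and platelet precursors, did not pass the filter.

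Many factors of macrophage maturation and activation were far higher in the cord. Of 39 listed, 33 passed the filter, 18 were 4-fold higher and none 4-fold lower, with a median of 2.06. Nr4a3, an orphan nuclear receptor induced early in activation, was at 0.0988 RPKM in the marrow library, 61.5 in cord monocytes and 93.4 in the APC library. Its relative Nr4a1 was at 20.4, 293 and 207 RPKM. Bhlhe40, a repressor that limits Il10 in T cells and macrophages, was at 4.86, 301 and 252 RPKM and 61.9-fold higher (95% interval 56.6 to 67.9) in the cord. Nr1h3, which encodes the oxysterol receptor LXRα, was at 0.350, 23.2 and 28.7 RPKM and 66.3-fold higher (95% interval 44.1 to 105), while its partner gene Nr1h2, encoding LXRβ, was at 39.2, 52.4 and 46.6 RPKM. Within the pair, then, the inducible receptor was the one far apart between the organs. Egr2 (5.67), Prdm1, which encodes BLIMP1 (4.58), Id3 (4.20), Batf2 (4.07) and Crem (3.50) were also among the 18. So was Hif1a, the oxygen-regulated factor, at 54.5, 229 and 192 RPKM. Not every factor of mature macrophages was higher: Klf2 (-0.03), Tfe3 (0.01) and Zeb2 (0.40) were near 0, and the retinoid receptor genes Rxra (-0.49) and Rara (-0.88) were below it.

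Among NF-κB genes, several inhibitor genes and the subunit gene Relb were far higher in the cord. All 21 members passed the filter, 8 were 4-fold higher and none lower, with a median of 1.54. Nfkb1, the p50 subunit, and Rela, the p65 subunit, were close in both organs, at 81.8 and 96.1 RPKM and 35.2 and 52.1 RPKM in marrow and cord. Relb, the subunit of the non-canonical pathway, was 4-fold higher at 5.95 and 40.5 RPKM. The inhibitor gene Nfkbia was at 70.4 RPKM in the marrow library, 999 in cord monocytes and 746 in the APC library, and the deubiquitinase gene Tnfaip3, which ends NF-κB signalling, at 7.78, 408 and 359 RPKM. The inhibitor genes Nfkbie (3.80), Nfkbiz (3.67) and Nfkbid (3.05) were also 4-fold higher. The kinase gene Ikbkb, which starts the signal, was lower at 53.9 and 24.9 RPKM.

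Of the IRF and STAT genes, 12 of 13 passed the filter, and Irf1 and Irf7, the interferon-inducible members, were 4-fold higher. Irf1 was at 41.4, 277 and 183 RPKM and Irf7 at 45.3, 209 and 118 RPKM. Stat2 (1.32) was higher by less than 4-fold, and Stat3 (-0.13) and Stat6 (-0.41) were within 1 of marrow. The genes altered in DKI mice were lower in the cord. Stat5a (Entrez 20850) was at 14.9, 6.74 and 7.84 RPKM and Stat5b (Entrez 20851) at 33.5, 12.5 and 11.8 RPKM, with folds of 2.21-fold (2.03 to 2.42) and 2.68-fold (2.55 to 2.83). With no wild-type monocyte library, these levels do not check the genotype. The list's median of -0.13 became 0.17 after centring.

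**Figure D2:**
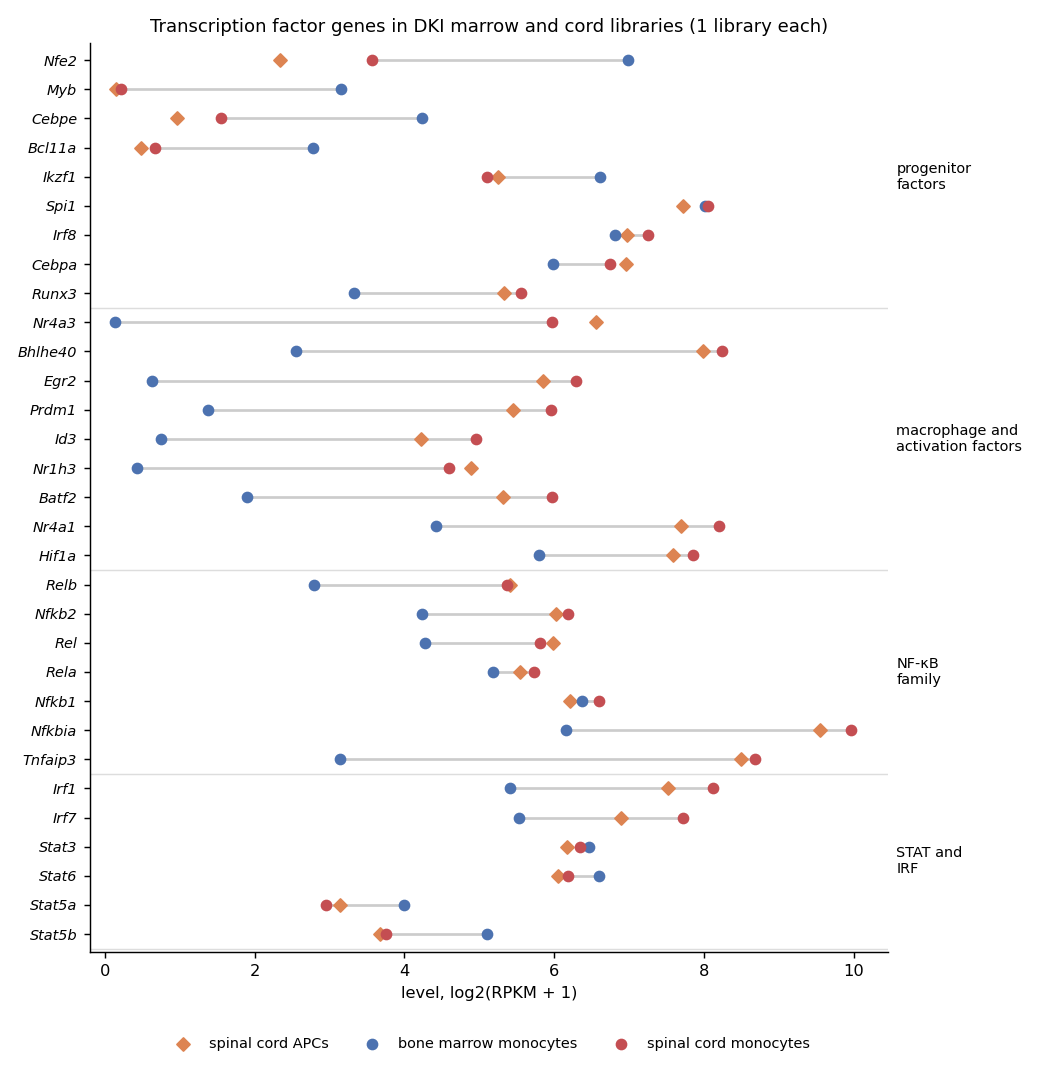
Levels, log2(RPKM + 1), of transcription factor genes in bone marrow monocytes (blue), spinal cord monocytes (red) and spinal cord APCs (orange diamonds), with a grey line joining the monocyte libraries. Nfe2, Myb, Cebpe and Bcl11a lie to the left in the cord, the macrophage and activation factors to the right, and Spi1 nearly at 1 place in both monocyte libraries.

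Feedback regulators of signalling were high in the cord together with these factors. Of 22 genes for MAP kinase phosphatases, SOCS and Sprouty-related proteins, 17 passed the filter, 9 were 4-fold higher and none lower, with a median of 2.09. Socs3, the inhibitor of IL-6 family signalling, was at 18.6 RPKM in the marrow library, 502 in cord monocytes and 416 in the APC library. Dusp5, a nuclear ERK phosphatase, was at 0.832, 64.4 and 62.6 RPKM, and Dusp4, its relative, at 0.0767, 19.8 and 16.6 RPKM. The family was not uniform, since Dusp7 (-1.53), Dusp3 (-0.26) and Socs6 (-0.97) lay below 0.

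Genes of the integrated stress and antioxidant response were mostly higher, and the chaperones of the endoplasmic reticulum were not. In the first list 8 of 19 were 4-fold higher and 2 lower by as much (median 1.39). The cystine transporter gene Slc7a11 was at 0.255 RPKM in the marrow library, 15.5 in cord monocytes and 17.4 in the APC library, and Ddit4, the stress-induced mTORC1 inhibitor, at 5.55, 70.003 and 66.6 RPKM. Hmox1, heme oxygenase 1, was at 78.4, 400.3 and 332 RPKM. The members 4-fold lower were Gsr, glutathione reductase, at 391, 90.95 and 58.97 RPKM, and Psat1, an enzyme of serine synthesis, at 45.6, 7.36 and 5.82 RPKM. Slc7a11 and Gsr, which feed and recycle glutathione, thus differed in opposite directions. Of 21 genes of the unfolded protein response, none was 4-fold apart, and the median was -0.56, with Hspa5, the chaperone BiP, at 382 and 638 RPKM and Ern1, the sensor IRE1α, at 21.7 and 8.84 RPKM.

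Chemoattractant receptors differed in both directions. Of 21 listed, 15 passed the filter, 6 were 4-fold higher and 2 were 4-fold lower, with a median of 1.53. Ccr2, needed for monocyte exit from the marrow, was at 955 RPKM in the marrow library, 189 in cord monocytes and 70.7 in the APC library, 5.04-fold lower (95% interval 4.96 to 5.13) in cord monocytes. S1pr4, a sphingosine-1-phosphate receptor of leukocytes, was at 15.8, 0.917 and 0.999 RPKM. Ccrl2, a non-signalling receptor that presents chemerin, was at 4.71 RPKM in the marrow library, 781 in cord monocytes and 771 in the APC library, 166-fold higher (95% interval 150.2 to 184). Cmklr1, a signalling chemerin receptor, was also high in the cord at 2.92, 128 and 107 RPKM, so Ccrl2 and Cmklr1 were both higher. C3ar1, the receptor of the complement peptide C3a, was at 1.07, 98.97 and 111 RPKM, and C5ar1, its C5a counterpart, at 19.2, 104 and 77.1 RPKM. Cx3cr1, the fractalkine receptor, was level between the monocyte libraries and higher in APCs, at 46.1, 46.7 and 134 RPKM.

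Cytokine receptor genes showed fewer large differences. Of 26 past the filter, 4 were 4-fold higher and none lower, and the median was 0.44. Il7r, the IL-7 receptor, was at 0.0580 RPKM in the marrow library, 43.5 in cord monocytes and 56.4 in the APC library. Il7r is also a T cell gene and made up most of the summed T cell markers in the cord, where Cd3e was at 3.68 RPKM. In the Th17 libraries the level of Il7r, in log2(RPKM + 1), was 6.21 to 7.16, against 5.48 in cord monocytes, whereas the level of Cd3e was 7.85 to 8.64 there and 2.23 in cord monocytes. Il21r was at 3.14, 50.9 and 62.7 RPKM, and Il2rg, the chain shared by the IL-2 receptor family, at 38.1, 179.8 and 197 RPKM. The subunits for GM-CSF were nearly level: Csf2ra stood at 149.6 and 190.3 RPKM and Csf2rb at 108 and 158 RPKM. Receptors for IL-6 and IL-17 were lower, Il6ra at 156 and 45.1 RPKM, its signalling chain Il6st at 49.7 and 14.9 RPKM and Il17ra at 143 and 46.4 RPKM, none of them by 4-fold. In the TNF receptor family, 3 of 12 were 4-fold higher and none lower (median 0.59). Cd40, the costimulatory receptor, was at 5.63, 67.8 and 51.8 RPKM, Tnfrsf12a, the TWEAK receptor, at 2.31, 45.2 and 35.5 RPKM, and Tnfrsf9 at 0.0280, 8.79 and 16.3 RPKM. The TNF receptors themselves were close in both organs, with Tnfrsf1a at 135 and 152 RPKM and Tnfrsf1b at 119 and 187 RPKM.

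Ligands for T cell costimulation and restraint were among the genes furthest apart. Of 26 listed, 18 passed the filter, 9 were 4-fold higher and none lower, with a median of 2.30. Members that passed only through the cord had to be higher there. The median was 1.40 with a pseudocount of 5. Without a filter it was 0.88, beside -0.03 for all genes, with 9 again 4-fold higher. Cd274, which encodes PD-L1, was at 1.49 RPKM in the marrow library, 323 in cord monocytes and 221 in the APC library, 217-fold higher (95% interval 186 to 253). Pdcd1lg2, which encodes PD-L2, was at 0.0182, 9.36 and 14.2 RPKM. Cd86 was at 14.08, 95.9 and 85.7 RPKM and Cd80 at 5.67, 20.95 and 19.1 RPKM, both ligands of CD28. The self-ligand receptor genes Slamf7 (6.00) and Slamf8 (4.38) were also high. On the other side, Vsir, which encodes the checkpoint protein VISTA, was at 189 and 64.2 RPKM and Cd48 at 172 and 82.05 RPKM, both lower by less than 4-fold.

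Lectin and immunoglobulin-like receptors differed within their families. In the C-type lectin list, 6 of 14 past the filter were 4-fold higher and none lower (median 0.64). Over all 13 genes with Clec symbols past the filter, 4 were higher, 1 was lower, namely Clec2i at -2.98, and the median was 0.18. Clec4n, which encodes Dectin-2, was at 1.89 RPKM in the marrow library, 102 in cord monocytes and 137 in the APC library, and its neighbours Clec4d (4.96) and Clec4e, the Mincle gene (3.45), were also 4-fold higher. The inhibitory and related genes Clec4a1 (-1.20), Clec4a2 (-1.65) and Clec4a3 (-1.27) lay on the other side of 0. These 3 are near-copies, and the counting may have split reads between them. In the paired immunoglobulin-like list, 7 of 27 were at least 4-fold higher and 1 was lower (median 0.56). Trem1, an amplifier of inflammation, was at 7.53, 99.8 and 63.8 RPKM and Cd300lf at 37.02, 232 and 187 RPKM, whereas Cd300lb was at 51.8, 8.49 and 7.71 RPKM. Tyrobp, which encodes the adaptor DAP12 used by TREM and CD300 receptors, was level at 1346 and 1348 RPKM. Lilr4b and Lilrb4a (3.65 and 1.94) are close paralogues and uncertain in the same way.

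Of the scavenger and phagocytic receptors, 5 of 17 were 4-fold higher and none lower, with a median of 0.33. Cd14, the endotoxin co-receptor, was at 44.2 RPKM in the marrow library, 1561 in cord monocytes and 1247 in the APC library, 35.3-fold higher (95% interval 33.9 to 36.8). Mertk and Axl, receptor kinases that take up dying cells, were at 0.253, 28.5 and 56.6 RPKM and 4.71, 88.5 and 133 RPKM. Their bridging ligand gene Pros1 was lower, at 33.6 and 12.2 RPKM. Scarb1, the HDL receptor, was at 81.5 and 21.1 RPKM. Microglia also express Mertk, and the microglia marker sums had the same order over the 3 libraries.

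Receptors for nucleotides, metabolites and lipid mediators made up a further group, with 6 of 21 at 4-fold higher, 1 at 4-fold lower and a median of 1.56. Hcar2, the receptor of butyrate, ketone bodies and niacin, was at 1.93 RPKM in the marrow library, 163 in cord monocytes and 139 in the APC library. P2ry14, which senses UDP-glucose, was at 0.638, 31.7 and 32.9 RPKM, and Adora2a, an adenosine receptor, at 0.807, 17 and 16.3 RPKM. Ptger4, a prostaglandin E2 receptor, was at 15.2, 112 and 64.1 RPKM. The ADP receptors differed from each other, with P2ry1 at 19.2, 2.90 and 1.09 RPKM and P2ry13 at 5.12, 21.7 and 34.5 RPKM.

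**Figure D3:**
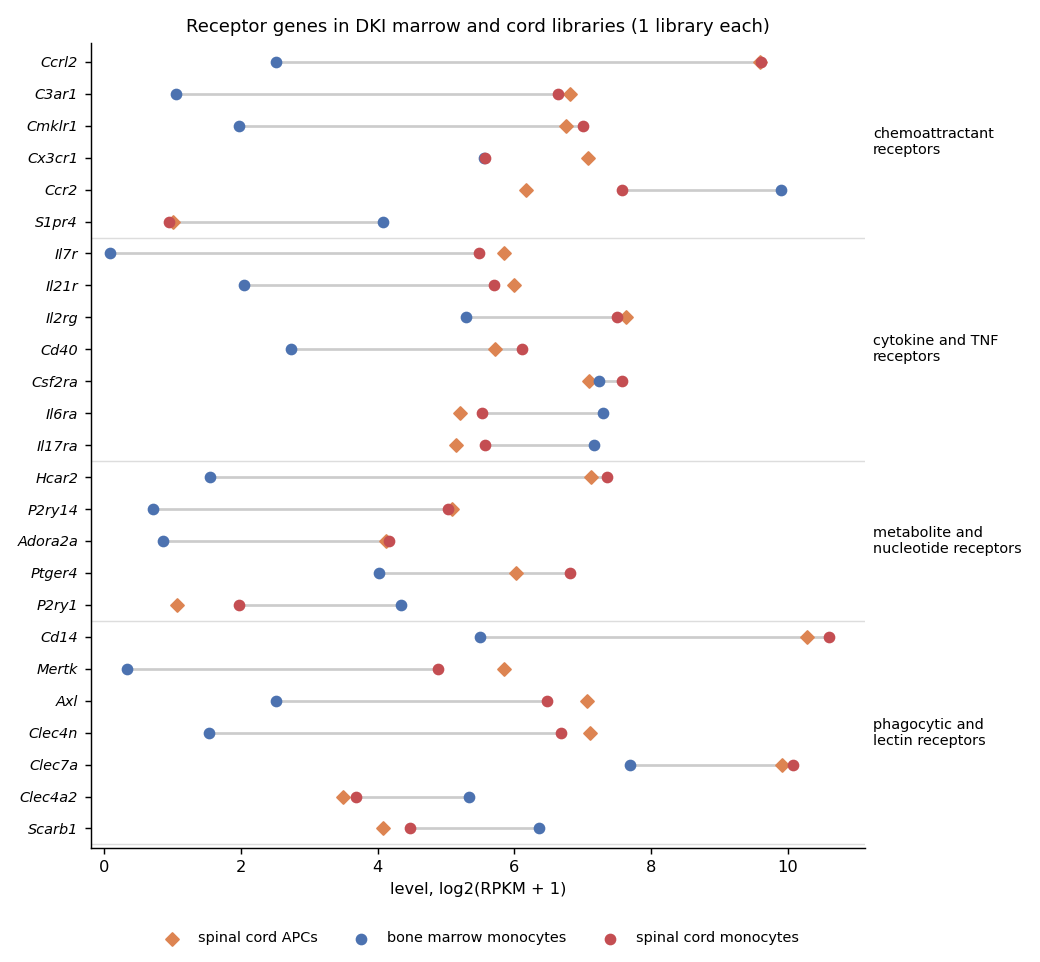
Levels, log2(RPKM + 1), of receptor genes in bone marrow monocytes (blue), spinal cord monocytes (red) and spinal cord APCs (orange diamonds), with a grey line joining the monocyte libraries. Ccr2, S1pr4, P2ry1, Clec4a2 and Scarb1 lie to the left in the cord, Ccrl2, Cd14 and Hcar2 lie to the right, and Cx3cr1 is at 1 place in both monocyte libraries.

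Central carbon metabolism separated by pathway. Of 19 glycolysis genes past the filter, 18 were above 0 and 4 were 4-fold higher, with a median of 1.17. None of the 23 citric acid cycle genes past the filter was above 0 (median -0.78), none of the 12 pentose phosphate and NADPH genes was (median -1.37), and 1 of 20 fatty acid oxidation genes was (median -0.63). After centring these 3 medians were -0.48, -1.07 and -0.33. Of all genes, 31.5% were above 0. These genes are set against the all-gene median of -0.37. Below it lay 20 of the 23 citric acid cycle genes, 11 of the 12 pentose phosphate genes and 15 of the 20 fatty acid oxidation genes. No citric acid cycle or fatty acid oxidation gene was 4-fold apart.

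Within glycolysis, the gene furthest apart on the log2(RPKM + 1) scale was Pfkfb3, whose product makes the activator of phosphofructokinase. It was at 8.99 RPKM in the marrow library, 88.004 in cord monocytes and 86.5 in the APC library, 9.79-fold higher (95% interval 9.29 to 10.3). Its isoenzyme gene Pfkfb4 was the member below 0, at 22.9, 12.8 and 11.6 RPKM. Pfkl, the liver-type phosphofructokinase, was at 21.4, 98.1 and 101 RPKM, Tpi1, triose phosphate isomerase, at 114, 563 and 558 RPKM, and Aldoc at 1.69, 19.2 and 35.4 RPKM. Hexokinase genes differed, with Hk2 at 36.4 and 140.4 RPKM, Hk3 at 62.7 and 191 RPKM and Hk1 at 30.3 and 34.7 RPKM. Ldha, lactate dehydrogenase A, was at 117, 375 and 353 RPKM, and the glucose and lactate transporter genes Slc2a1 and Slc16a3 were at 16.1, 229 and 179.7 RPKM and 35.98, 136 and 109.8 RPKM. Entry and exit of the pathway were thus higher along with its middle. Gapdh, Eno1 and Pgam1 have many processed copies in the genome, and their low values, such as 13.1 and 28.1 RPKM for Gapdh, may miss reads.

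In the pentose phosphate group, G6pdx, the X-linked enzyme of the first step, was at 193 RPKM in the marrow library, 40.4 in cord monocytes and 39.5 in the APC library, 4.78-fold lower (95% interval 4.59 to 4.97). Idh1, the cytosolic isocitrate dehydrogenase, which makes NADPH, was at 197, 26.5 and 30.5 RPKM. Me2, a mitochondrial malic enzyme counted in the same list although it mainly uses NAD, was at 103, 16.05 and 13.96 RPKM. Pgd, Tkt and Taldo1, the later steps, were at 379 and 183 RPKM, 246 and 124 RPKM and 374 and 191 RPKM. The reads of G6pd2, a retrogene of G6pdx, cannot be cleanly separated from it. Of the citric acid cycle genes, Fh1, fumarase, was furthest at 49.97, 15.8 and 20.4 RPKM, and Idh2 was at 42.4, 15.7 and 21.1 RPKM. The 4 succinate dehydrogenase subunits ranged from -0.32 for Sdhb to -1.04 for Sdha. For fatty acid oxidation, Cpt1a, the carnitine transferase that admits fatty acids to mitochondria, was at 78.3, 29.6 and 29.97 RPKM and Acaa2 at 49.95, 16.4 and 16.7 RPKM.

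**Figure D4:**
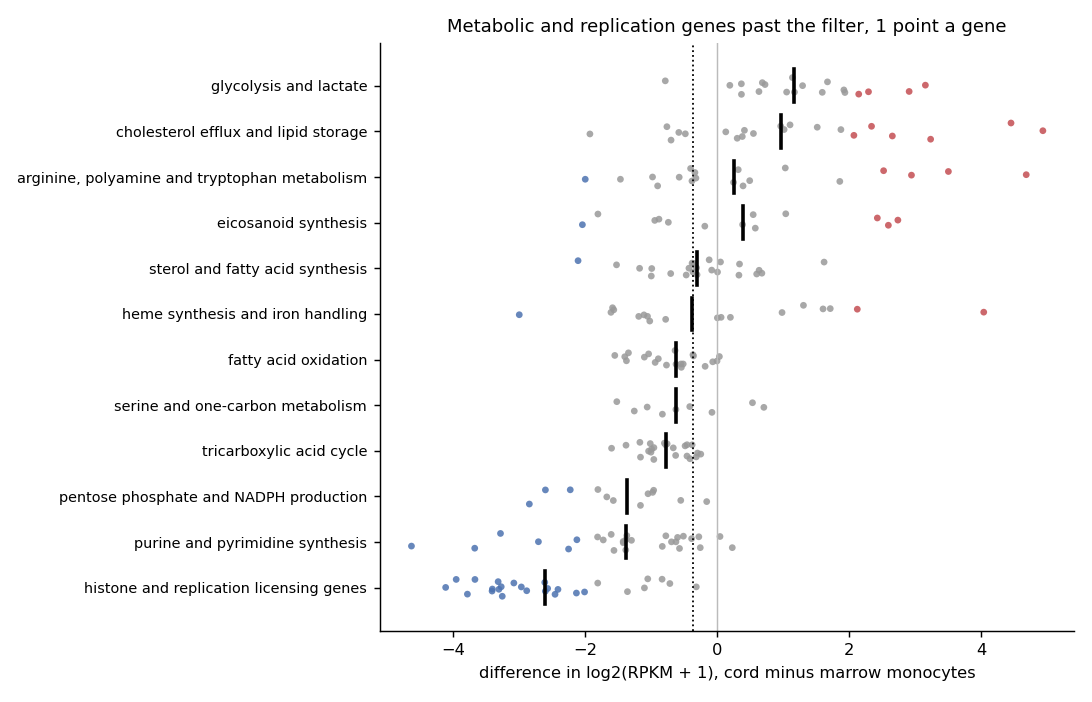
Difference in log2(RPKM + 1), cord minus marrow monocytes, for the genes past the filter in 12 lists, 1 point a gene. Red and blue points are at least 4-fold higher and lower, black bars are list medians, the dotted line is the median of all genes (-0.37). Glycolysis lies to the right (median 1.17), the citric acid cycle and pentose phosphate genes to the left (-0.78 and -1.37), and replication genes furthest left (-2.61).

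The letters ACGTG form the core of the hypoxia response element bound by HIF-1. They were searched on both strands in 300 bases of promoter, from 250 before to 50 after the annotated start, from RefSeq on GRCm38.p6, for the 6640 of 8182 genes that have a promoter there. Of all these promoters 27.7% held the letters, as did 24.7% of those of genes 4-fold higher, 22.1% of those 4-fold lower, and 8 of the 19 glycolysis promoters (42.1%). The search overlaps that for the E-box CACGTG, which contains the letters and was found in 11.1% of all, 10.7% of higher and 7.1% of lower promoters. The share among higher genes was therefore not above that of all genes. Promoter stretches of 6 genes named here are shown as examples. These genes are known to respond to low oxygen, were all higher in the cord, and have promoters that hold the letters. Other higher genes named here, such as Vegfa, are not shown. Because only promoters with the letters were chosen, the 6 do not bear on how common the letters are. Capitals mark the letters on either strand, each stretch runs 5′ to 3′ on the gene's strand, and none goes past the annotated start.
Slc2a1, chr4:119108684-119108738, plus strand: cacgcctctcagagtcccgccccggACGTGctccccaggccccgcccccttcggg
Pfkfb3, chr2:11553960-11554014, minus strand: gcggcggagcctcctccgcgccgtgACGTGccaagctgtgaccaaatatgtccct
Slc16a3, chr11:120949015-120949066, plus strand: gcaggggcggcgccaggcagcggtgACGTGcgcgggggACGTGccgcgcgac
Ldha, chr7:46845634-46845799, plus strand: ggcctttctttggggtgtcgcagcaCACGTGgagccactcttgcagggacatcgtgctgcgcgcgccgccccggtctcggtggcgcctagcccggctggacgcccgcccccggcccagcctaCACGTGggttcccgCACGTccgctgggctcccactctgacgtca
P4ha1, chr10:59323255-59323295, plus strand: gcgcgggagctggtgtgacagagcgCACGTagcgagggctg
Ddit4, chr10:59951928-59951982, minus strand: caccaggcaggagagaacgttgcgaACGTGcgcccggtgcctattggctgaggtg
Of these, the Slc16a3 and Ldha stretches hold the letters more than a single time, and in Ldha the palindrome CACGTG stands at offsets -145 and -48 from the start. A match does not show that HIF-1 binds there. P4ha1, the collagen prolyl hydroxylase shown with them, was at 12.7, 64.9 and 71.02 RPKM.

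Most genes for cholesterol efflux and lipid storage were higher in the cord, and most genes for sterol and fatty acid synthesis were not. Of 21 genes for cholesterol efflux and lipid storage, 6 were 4-fold higher and none lower, with a median of 0.96. Abca1, the cholesterol exporter, was at 1.31 RPKM in the marrow library, 49.6 in cord monocytes and 90.6 in the APC library, 37.9-fold higher (95% interval 34.4 to 41.8). Hilpda, which blocks lipolysis in lipid droplets, was at 1.76, 83.7 and 90.7 RPKM, and Ch25h, the 25-hydroxylase of cholesterol, at 0.0230, 8.63 and 5.90 RPKM. Lpl, lipoprotein lipase, went the other way at 27.8, 6.56 and 5.64 RPKM. Of 23 sterol and fatty acid synthesis genes, none was 4-fold higher, and Elovl6, a fatty acid elongase, was 4-fold lower at 5.28, 0.456 and 0.327 RPKM. Their median of -0.31 was near that of all genes. Insig1, which holds SREBP back, was the highest at 21.4 and 67.7 RPKM, and Fasn, fatty acid synthase, was at 7.38 and 1.91 RPKM. In eicosanoid synthesis, 3 of 13 were at least 4-fold higher and 1 was lower (median 0.38). Ptges, prostaglandin E synthase, was at 0.952, 9.50 and 7.38 RPKM, while the leukotriene genes Alox5 and Lta4h were at 6.24, 1.07 and 1.82 RPKM and 96.1, 22.5 and 29.5 RPKM. The prostaglandin and leukotriene genes named here were thus on opposite sides of 0.

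Among arginine, polyamine and tryptophan genes, 4 of 19 were at least 4-fold higher and 1 was lower (median 0.25). Arg2, the mitochondrial arginase, was at 1.29 RPKM in the marrow library, 57.9 in cord monocytes and 46.1 in the APC library. Gatm, which makes the creatine precursor from arginine, was at 25.005, 294 and 319.8 RPKM, and Slc6a8, the creatine transporter, at 0.0623, 9.43 and 14.3 RPKM. Odc1, which opens polyamine synthesis, was at 9.87, 61.4 and 56.7 RPKM and Smox, spermine oxidase, at 9.34, 78.6 and 39.2 RPKM. Haao, an enzyme of the kynurenine branch of tryptophan breakdown, was at 24.4, 5.35 and 7.38 RPKM.

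In heme and iron handling, 2 of 18 were at least 4-fold higher and 1 was lower, with a median of -0.39 beside -0.37 for all genes. These counts do not set the list apart from all genes, of which 6.23% were higher and 5.13% lower. Fth1, the ferritin heavy chain, was at 809.5 RPKM in the marrow library, 13335 in cord monocytes and 14521 in the APC library and was the gene with the largest share of reads in both cord libraries, at 2.00% of cord monocyte reads. Ftl1, the light chain, was at 179, 355 and 436 RPKM, and both have processed copies that may share reads. Lcn2, lipocalin 2, a neutrophil granule and acute phase gene, was at 519, 63.97 and 65.2 RPKM. The sum of the mature neutrophil markers given above was also lower in both cord libraries, although not every marker was. The late steps of heme synthesis were lower by less than 4-fold, such as Cpox at 15.96 and 4.65 RPKM and Fech at 16.8 and 7.78 RPKM, while Alas1, the first step, was at 34.5 and 107 RPKM.

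Genes for making DNA had the lowest median among the pathway lists. Of 27 replication licensing and chromatin genes, all past the filter and all below 0, 20 were 4-fold lower, with a median of -2.61. Mcm5, a subunit of the replicative helicase, was at 87.6 RPKM in the marrow library, 4.71 in cord monocytes and 5.99 in the APC library, 18.6-fold lower (95% interval 16.9 to 20.6). Uhrf1, which maintains DNA methylation at the fork, was at 38.97, 1.304 and 2.61 RPKM, and E2f8, an E2F repressor, at 43.6, 2.50 and 1.69 RPKM. In nucleotide synthesis, 6 of 28 genes were 4-fold lower and none higher (median -1.38). Rrm2, the cell cycle subunit of ribonucleotide reductase, was at 89.99, 2.66 and 2.47 RPKM, and Tyms, thymidylate synthase, at 9.38, 0.586 and 0.724 RPKM. Rrm1, Dut and Tk1, which likewise supply deoxynucleotides, were also among the 6. The purine steps were lower by less, such as Paics at 83.03 and 22.9 RPKM and Impdh2 at 10.3 and 8.48 RPKM, and Rrm2b, the subunit for resting cells, did not pass the filter. Serine and one-carbon genes had no member at 4-fold among 9 (median -0.63). Progenitor markers, which sum to 917 RPKM in marrow, were mostly high in the same library as these genes, and their part in this was not tested.

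The letters TTTGAA form the cell cycle homology element at which the DREAM complex represses mitotic genes outside division. They were found on either strand in 28.9% of promoters of the 339 genes 4-fold lower, in 11.0% of the 392 higher and in 11.8% of all 6640. CCAAT, the NF-Y box often found near it, was in 50.7%, 35.2% and 38.5%. For the 22 licensing promoters the shares were 18.2% for TTTGAA and 63.6% for CCAAT. These are descriptions with no test. Stretches of 3 mitotic genes are shown because the letters stand in each within 30 bases upstream of the start. Kif11, the spindle kinesin, was at 57.4, 0.795 and 0.984 RPKM, Ube2c, the ubiquitin carrier of the anaphase-promoting complex, at 95.02, 3.96 and 4.87 RPKM, and Top2a, the topoisomerase of mitotic chromosomes, at 174, 4.06 and 5.09 RPKM.
Kif11, chr19:37376338-37376381, plus strand: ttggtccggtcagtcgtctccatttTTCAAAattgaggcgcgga
Ube2c, chr2:164769875-164769928, plus strand: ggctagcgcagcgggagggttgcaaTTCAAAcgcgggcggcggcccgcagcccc
Top2a, chr11:99024190-99024393, minus strand: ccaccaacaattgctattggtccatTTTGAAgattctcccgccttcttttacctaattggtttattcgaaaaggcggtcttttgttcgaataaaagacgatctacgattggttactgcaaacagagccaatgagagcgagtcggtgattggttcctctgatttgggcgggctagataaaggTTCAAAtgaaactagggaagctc
The Top2a stretch holds the letters at offsets -179 and -23, and the other stretches hold them at a single place.

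Adhesion genes differed in both directions. The median was near that of all genes (-0.37) for integrins and above it for the selectin and adhesion list. Of 15 integrin and linker genes, 2 were 4-fold higher and 3 were 4-fold lower (median -0.50). Itgax, which encodes CD11c of dendritic cells and activated macrophages, was at 0.216 RPKM in the marrow library, 27.9 in cord monocytes and 64.7 in the APC library. Itgb5, a partner of the αV chain, was at 16.4, 93.96 and 166 RPKM. The lower members were Vcl, which encodes vinculin, at 68.5, 6.10 and 5.02 RPKM, Itga1 at 20.3, 3.49 and 2.45 RPKM and Itgb3 at 6.67, 0.727 and 1.74 RPKM. The β2 integrins of monocyte entry were at similar levels in both organs, with Itgam at 338 and 339 RPKM and Itgal at 111 and 77.9 RPKM. Itga4, the α4 chain that binds VCAM-1 on inflamed vessels, was at 87.99, 30.7 and 23.4 RPKM. For the selectin and adhesion list, 5 of 24 were 4-fold higher and 2 were 4-fold lower (median 0.10). Among the lower members was Ceacam1 at 43.6, 5.17 and 3.83 RPKM. The tetraspanin genes Cd9, Cd81 and Cd63 were at 14.4 and 229.9 RPKM, 4.94 and 52.1 RPKM and 7.05 and 49.5 RPKM, and Icam1, the β2 integrin ligand, at 16.2, 151 and 126 RPKM. Cd44, the hyaluronan receptor, was level at 183 and 194 RPKM.

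The cytoskeleton list had 5 of 28 members 4-fold higher and 3 lower, and a median of -0.58. Basp1, a membrane-bound actin regulator known from neurons, was at 0.468 RPKM in the marrow library, 145 in cord monocytes and 135 in the APC library. Myo1e, a myosin of phagocytic cups, was at 0.320, 25.9 and 32.8 RPKM, and Lmna, the nuclear lamin A gene, at 1.20, 19.4 and 21.1 RPKM. Flna, filamin A, was at 600.0, 111 and 90.6 RPKM, Cnn2 at 192, 41.3 and 36.2 RPKM and Lsp1 at 567, 129.9 and 96.9 RPKM. The calponin genes thus differed in direction, since Cnn3 was at 0.603, 37.3 and 23.3 RPKM. Coro1a and Myo1g, leukocyte actin genes, were lower by less than 4-fold, at 1191 and 363 RPKM and 164 and 42.9 RPKM.

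Several secreted growth factor genes were near 0 RPKM in marrow and abundant in the cord. Of 24 growth and angiogenic factor genes listed, 16 passed the filter, 12 were 4-fold higher and none lower, with a median of 3.28. With a pseudocount of 5 these became 6 genes and a median of 1.86. A gene that passes the filter only in the cord had to be higher there, and the marrow levels of the 12 were under 2 RPKM except for Osm. Inhba, the activin A subunit, was at 1.16 RPKM in the marrow library, 227 in cord monocytes and 184 in the APC library. Vegfa, the vascular growth factor, was at 1.05, 287 and 284 RPKM, and Osm, oncostatin M, at 15.9, 535 and 328 RPKM. The platelet-derived growth factor genes Pdgfa and Pdgfb were at 0.243, 22.2 and 25.5 RPKM and 0.0527, 7.11 and 20.8 RPKM. Areg, amphiregulin, had no reads in marrow and was at 5.12 RPKM in cord monocytes, at least 65.8-fold higher against a floor of 3 reads in the marrow library. Tgfb1 was level at 142 and 155 RPKM and Grn, progranulin, at 396 and 608 RPKM.

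Of 19 proteases and inhibitors past the filter, 8 were at least 4-fold higher and 1 was lower (median 1.85). Mmp14, the membrane collagenase that activates MMP2, was at 0.609 RPKM in the marrow library, 210.4 in cord monocytes and 266 in the APC library, 346-fold higher (95% interval 263 to 468). For plasminogen activation, Plau, urokinase, was at 9.67, 117 and 85.1 RPKM and its receptor gene Plaur at 67.4, 309 and 191 RPKM. Timp1 was at 0.105, 31.3 and 21.9 RPKM and Timp2 at 3.95 and 12.6 RPKM. Mmp13 had no reads in marrow and was at least 178-fold higher on the same floor. Mmp8, a neutrophil collagenase, was the lower member at 290.4, 53.5 and 39.2 RPKM. Matrix genes were mixed, with 5 of 15 at 4-fold higher, 2 at 4-fold lower and a median of 0.30. Spp1, osteopontin, was at 6.73, 299 and 261 RPKM, and Thbs1, thrombospondin 1, at 35.9, 851 and 475 RPKM, whereas Vcan, versican, was at 95.3, 12.5 and 0.312 RPKM and Anxa1 at 479.6, 88.5 and 78.1 RPKM. In coagulation, 4 of 10 were 4-fold higher and 2 were 4-fold lower (median 1.40). The median was 0.43 with a filter of 1 RPKM and 0.15 without a filter, with the same counts at 4-fold. F3, tissue factor, was at 0.0166, 15.4 and 8.47 RPKM and F7, its ligand, at 2.83, 30.5 and 42.5 RPKM, while F13a1 and F5 were at 1263, 149 and 153 RPKM and 27.9, 4.13 and 1.17 RPKM. Procr, the protein C receptor, at 0.0824, 38.5 and 56.8 RPKM, and Vwf, at 0.390, 6.05 and 8.08 RPKM, are also endothelial genes, and Cldn5, a defining endothelial marker with no reads in marrow, was at 5.70 RPKM in cord monocytes.

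Of 105 solute carrier genes past the filter, mitochondrial carriers not counted, 10 (9.52%) were 4-fold higher and 2 (1.90%) lower, beside 6.23% and 5.13% of all genes, and their median was -0.11. The gene furthest apart was Slc7a2, the cationic amino acid transporter CAT2 that brings in arginine. It was at 0.410 RPKM in the marrow library, 94.7 in cord monocytes and 120.1 in the APC library, 231-fold higher (95% interval 191 to 283). Slc7a1, the constitutive arginine transporter CAT1, was at 9.54, 5.74 and 5.001 RPKM. Of the amino acid and peptide transporters, 5 of 20 were at least 4-fold higher and 1 was lower (median 0.01). Slc3a2, the heavy chain CD98, was at 18.2, 172 and 171 RPKM, and among its light chains Slc7a8 was at 2.84, 56.8 and 54.2 RPKM and Slc7a11 as given above, but Slc7a5 was at 8.36 and 11.5 RPKM and Slc7a7 at 20.9 and 19.2 RPKM. The heavy chain was thus higher with some light chains and not others. Slc15a3, an endolysosomal histidine and peptide carrier, was at 40.2, 243 and 207 RPKM. Slc43a3, a purine base transporter, was the lower member at 20.1, 1.82 and 2.34 RPKM.

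In the glucose, lactate and anion list, 3 of 15 were 4-fold higher and none lower (median 0.17), led by Slc2a1 (3.75) and Slco2b1, an organic anion carrier, at 0.00626, 7.11 and 25.9 RPKM. Slco2b1 is also expressed by microglia. None of 8 nucleoside, vitamin and choline transporters was 4-fold apart (median 0.09), and the largest difference was for Slc44a2, a choline transporter-like protein, at 91.1 and 24.4 RPKM. Among zinc, copper and ion transporters, 4 of 22 were 4-fold higher and none lower (median 0.39). The metallothionein genes Mt1 and Mt2, which buffer zinc and copper, were at 26.01, 233 and 233 RPKM and 0.279, 16.7 and 20.9 RPKM. Slc39a14, the importer ZIP14, was at 0.881, 7.30 and 6.92 RPKM and Slc30a4, the exporter ZnT4, at 0.424, 5.86 and 8.87 RPKM.

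Of 23 ion channel genes, 4 were 4-fold higher and 1 lower (median -0.26, and 0.04 after centring). The potassium channel genes Kcnn4, which encodes the calcium-activated channel KCa3.1, and Kcna3, which encodes Kv1.3, were at 3.33, 32.5 and 31.2 RPKM and 4.64, 34.04 and 23.8 RPKM. Hvcn1, the proton channel, was at 15.1, 73.9 and 112 RPKM. Kcnab2, a channel β subunit, was at 72.8, 15.7 and 16.8 RPKM. The store-operated calcium genes Orai1 and Stim1 were at 30.97 and 21.7 RPKM and 24.2 and 10.1 RPKM. ABC transporters had 1 of 15 at 4-fold higher, Abcc3 (2.05), and 1 lower, Abcd2, a peroxisomal fatty acid importer, at 53.02, 7.76 and 8.39 RPKM, with a median of -0.89. This list leaves out Abca1, counted with the lipid genes, and over all 21 genes with Abc symbols past the filter 2 were higher and 2 lower (median -0.80). At 4-fold these counts do not set ABC transporters apart from all genes, of which 6.23% were higher and 5.13% lower. Mitochondrial carriers had 2 of 17 higher and none lower (median -0.38), namely the iron importer mitoferrin 1, Slc25a37, at 6.04, 61.3 and 53.3 RPKM, and Slc25a33, a pyrimidine nucleotide carrier, at 1.11, 13.4 and 14.4 RPKM.

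**Figure D5:**
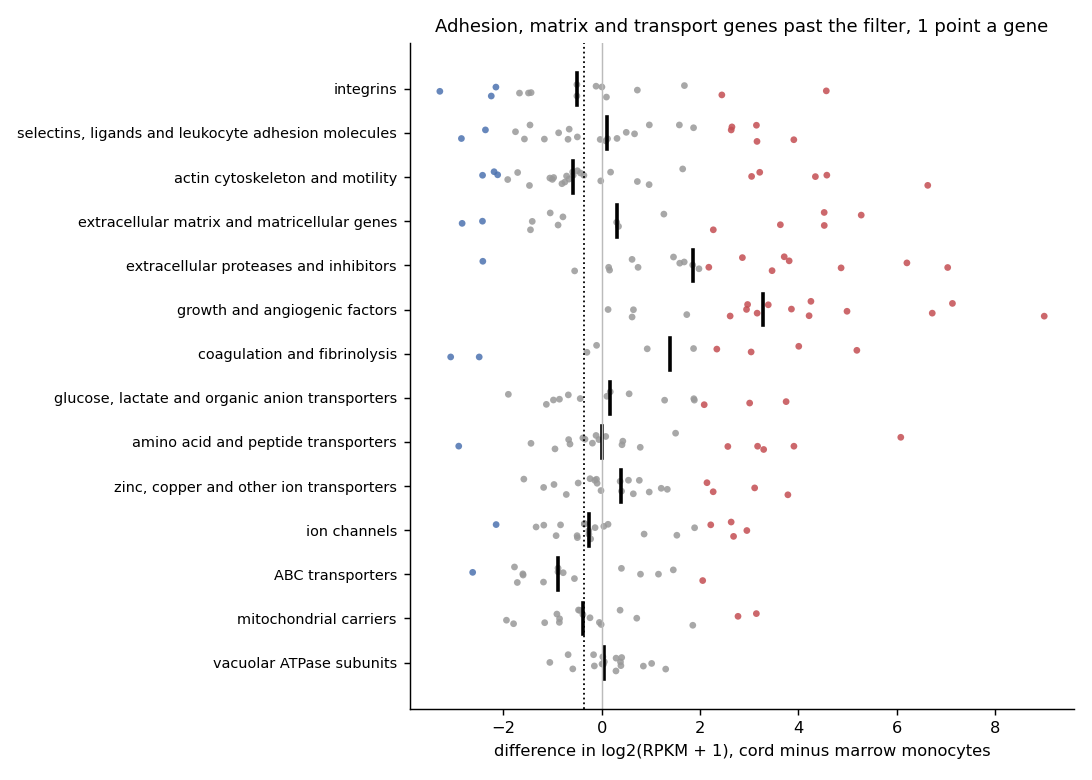
Difference in log2(RPKM + 1), cord minus marrow monocytes, for the genes past the filter in 14 lists, 1 point a gene. Red and blue points are at least 4-fold higher and lower, black bars are list medians, the dotted line is the median of all genes (-0.37). Growth factors have the highest median (3.28), the vacuolar ATPase has no point at 4-fold, and ABC transporters have the lowest median (-0.89).

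Of 26 lysosomal hydrolase and membrane protein genes, 6 were 4-fold higher and none lower (median 0.61). Gpnmb, a lysosomal glycoprotein of macrophages, was furthest at 4.93 RPKM in the marrow library, 195 in cord monocytes and 389.6 in the APC library. Lgmn, the asparagine endopeptidase legumain, was at 47.6, 477 and 821 RPKM. Ctsk, cathepsin K, was at 0.376, 13.2 and 18.6 RPKM, and Ctsl at 58.1, 246 and 345 RPKM. Psap, Lamp1 and Hexa were level, at 3444 and 2930.5 RPKM, 637 and 568 RPKM and 193 and 183 RPKM. The vacuolar ATPase, which acidifies the lysosome, had none of 17 subunits at 4-fold and a median of 0.05, with Tcirg1, the macrophage and osteoclast a3 subunit, the furthest at 64.7 and 161 RPKM. Apoptosis regulators had 10 of 25 at 4-fold higher and none lower (median 1.41). Bcl2l1, the survival gene of BCL-XL, was at 7.87, 54.2 and 40.1 RPKM, and Mcl1 at 219.5, 766 and 574 RPKM. The A1 genes Bcl2a1a, Bcl2a1b and Bcl2a1d were 5.67, 7.20 and 5.47 higher, though as near-identical copies their reads may be split. The pro-apoptotic gene Pmaip1, NOXA, was higher too at 8.64, 85.6 and 67.5 RPKM, as was Cdkn1a, the cell cycle inhibitor p21, at 26.3, 379 and 272 RPKM. Bid, another pro-apoptotic gene, was lower by less than 4-fold at 48.4 and 16.9 RPKM.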

How the data were processed

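RNA of sorted cells was sequenced as KAPA mRNA libraries, per the labels' protocols. Subread and featureCounts were used with mouse build mm10, per the submitters' processing notes. Their versions, the annotation and whether counting used strand are not given in the sources used here, so antisense and overlapping genes cannot be told apart. The deposited table holds log2 values that the authors made as log2(RPKM + 1), with 0.0001 for genes without reads, set here to 0. The base was checked by weighting values with GENCODE vM21 gene lengths, available for 94.5% of genes. Base 2 gave 1030000 to 1071000 per library, and base e 7809000 to 14736000. The header for cord APCs says monocyte-derived cells, and this column was assigned to that sample because no other sample or column remained. Of the Entrez identifiers, 20857 matched the gene table and 216 did not.

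Read totals were estimated from the smallest steps between low values. At these totals, 73.6% to 78.5% of values worth up to 5 reads lay within 0.1 of a whole number, against 20% if values were spread evenly. Intervals are exact binomial 95% intervals (Clopper-Pearson) and cover counting error only, since PCR copies are not independent molecules. They could be given for 98.8% of genes past the filter. Genes needed 5 RPKM in either library, and the pseudocount was 1. Lists were described by counts and medians, with no list test. List counts at 4-fold stand beside 6.23% higher and 5.13% lower of all genes, and small counts do not set a list apart. The genes named are the 30 furthest apart in each direction, list members at 4-fold, the 6 members furthest apart in each list, members near 0 as contrasts, and Stat5a and Stat5b. Gene models without names were not considered, nor were antigen receptor segments. Some list members count in the lists but are not reported here by name. Members and lists were chosen with earlier results of these data known. The counting was tested on simulated data. Alternatives were 3 other filters, pseudocounts of 0.1 and 5, centring, a 2-fold threshold and the APC library as the cord side. Python 3.11.15, pandas 2.3.3 and scipy 1.17.1 were used.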

Additional observations from a re-analysis of the deposited data

How the results depend on the processing

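Counts of 510 higher and 420 lower genes stayed within 1.5 times with a pseudocount of 0.1, centring, and the APC library as cord side. They also did so with a filter of 1 RPKM or none, which both gave 562 higher and 431 lower genes. That outcome was largely fixed beforehand and says little about stability. A lower filter can only add genes, and with a pseudocount of 1 the lowest of them cannot reach 4-fold. With a filter of 20 RPKM, 252 genes were lower and 58.6% of the genes at 4-fold were higher. A pseudocount of 5 gave 329 higher and 184 lower genes (64.1% higher), since it shrinks the differences of low genes. Centring gave 65.4% higher. At a 2-fold threshold 937 genes were higher and 1557 lower (37.6% higher), so lower genes outnumbered higher ones at 2-fold and not at 4-fold.

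Of 118 list counts, 109 stayed within 1.5 times after centring, 101 with a filter of 20 RPKM and 97 with the APC library. With a pseudocount of 5, 90 did so, and at 2-fold 58. Without a filter 113 did so, a run limited by the pseudocount as described above. Among the 1117 named and family genes past the filter, none that was 4-fold apart changed direction under any alternative run. Only the APC run could have reversed such a gene, and it shares the marrow library. The filters and the 2-fold threshold leave each difference as it is, and a pseudocount cannot change its sign. The centring shift of -0.30 is too small to reverse a 4-fold difference. Centring moved the medians of the IRF and STAT, ion channel and MS4A lists, the dendritic cell markers and the ribosomal protein reference from below to above 0. No paired analysis was possible because each side has 1 library, so none could be left out. Genes under 1 RPKM in marrow (174 of the higher) or in the cord (131 of the lower) have folds that rest on low values. In every list, a gene that passed the filter in only 1 library had to be higher there, so list medians depend on the filter.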

Other observations

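Among gene families taken by symbol, the E2F factors were all below 0, with 3 of 6 at 4-fold lower. Zinc finger genes with Zfp symbols were close to all genes, with 2 of 116 higher, 1 lower and a median of -0.34, beside -0.37 for all genes. Housekeeping families had no member at 4-fold: 34 nuclear genes of respiratory complex I (median -0.36), 70 mitochondrial ribosomal proteins (-0.48) and 46 proteasome genes (-0.32). Within the proteasome the highest differences belonged to the interferon-inducible activator and immunoproteasome genes Psme1, Psmb8, Psmb9, Psme2 and Psmb10. The 17 ribosomal protein genes used as a reference had none at 4-fold and a median of -0.08.

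The MS4A family of membrane proteins, 9 of 14 past the filter, spanned the range of the comparison with a median of -0.04. Ms4a3, a marker of granulocyte-monocyte progenitors, was at 32.6 RPKM in the marrow library, 0.625 in cord monocytes and 0.0401 in the APC library, and Ms4a7, a gene of macrophages, at 2.38, 91.6 and 189 RPKM in the same order. Ms4a4a and Ms4a4c were close in both monocyte libraries, at 220.5 and 250.4 RPKM and 219 and 213 RPKM. Close paralogues in this family may share reads.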
